A study of Mus musculus with 3 samples.

Results

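The interferon response and MHC class I genes described here are 31 listed genes, of 28692 in the deposited gene list. They comprise 19 genes of the interferon response (Ifit1, Ifit2, Ifit3, Isg15, Irf7, Irf1, Stat2, Usp18, Oasl2, Oas1a, Rsad2, Mx1, Bst2, Ifi27, Ifi44, Xaf1, Gbp2, Gbp3 and Zbp1) and 12 genes of MHC class I presentation (H2-K1, H2-D1, B2m, Tap1, Tap2, Tapbp, Psmb8, Psmb9, Psmb10, Nlrc5, H2-Q4 and H2-T23). They were followed in 3 pancreatic tumours of the mouse strain KPf/fC, where Cre acts in pancreatic cells and deletes both floxed copies of Trp53. The promoter that drives Cre and the age of the animals were not stated. Sorting had kept cells negative for CD45, CD31 and PDGFRa at the surface, and droplet sequencing of transcript 3' ends counted unique molecular identifiers (UMIs) in each cell. All 3 tumours belong to 1 group with no treated or control arm, and the comparisons made here set cell classes of the same tumours against each other. The labels do not say whether each tumour came from its own animal, so p-values measure the spread between these tumours only.

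Interferons are secreted proteins that signal through cell surface receptors and JAK kinases to transcription factors. The ISGF3 complex, which holds STAT2 and IRF9, binds interferon-stimulated response elements and switches on antiviral genes, while type II interferon acts through gamma-activated sites. The same signals raise the MHC class I pathway, which cuts proteins in the immunoproteasome, moves peptides into the endoplasmic reticulum through TAP and shows them to CD8+ T cells on a heavy chain bound to beta-2 microglobulin. Loss of class I presentation is a known way for tumour cells to escape T cells.

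Cells were classed by a pair of marker genes, each with at least 1 UMI: Epcam and Cdh1 for epithelial cells, Dcn and Col3a1 for fibroblasts, Upk3b and Lrrn4 for mesothelial cells, Rgs5 and Higd1b for mural cells (pericytes and vascular smooth muscle), and Pecam1 and Cdh5 for endothelial cells. Of 18990 kept cells, 7238 were epithelial, 5897 fibroblast, 359 mesothelial, 708 mural and 285 endothelial, and 4427 passed no pair. Tumour 2 had 18 endothelial cells, under the minimum of 20 for a sum, so endothelial values rest on tumours 1 and 3. Total UMIs per tumour ranged from 53162622 to 67262634, and the median per barcode from 6025 to 9052. Tumours shared 50 to 65 barcode sequences in pairs.

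Markers not used for the gates followed the class names. Each of 8 epithelial markers, 7 endothelial, 6 mesothelial and 8 mural markers was highest in its own class in every tumour, while 2 of 7 fibroblast markers were at least as high in the mural cells of tumour 2 as in its fibroblasts. Between 91.8% and 100% of mesothelial cells also passed the fibroblast pair. Epithelial markers in mesothelial cells stood at 12.3% to 14.6% (median over 8 markers) of their level in epithelial cells, and fibroblast markers in epithelial cells at 2.22% to 5.61% of the fibroblast level. The summed fibroblast markers reached 4192 counts per 1000000 UMIs (CPM) in the fibroblasts of tumour 2, against 11480 and 12759 in tumours 1 and 3. Among the endothelial cells of tumour 3, erythroid markers summed to 6499 CPM and fibroblast markers to 3300. The part that carried-over RNA of other cells has in the levels below was not tested. RNA of a surface protein used in the sort was still present: Pdgfra reached 99.4, 37.7 and 117 CPM in the fibroblasts of tumours 1, 2 and 3. Ptprc, which encodes CD45, was at 0.0640, 0 and 0.165 CPM there and at 0.230 to 1.02 CPM in epithelial cells.

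The promoters of the members were searched for the motifs through which interferon signals act. RefSeq promoter windows (assembly GRCm38.p6, 250 bases before to 50 after the start site) were matched by symbol for 25 of the 31 members, with 29 windows in all. The letters GAAA, any 2 bases and GAAA again, the core of the interferon-stimulated response element, were searched on both strands. They stood in 11 of the 29 windows and in 3.44% of all 32851 windows of the same length. The 11 genes were Ifit1, Ifit3, Isg15, Stat2, Oas1a, Rsad2, Bst2, Gbp2, Gbp3, B2m and H2-T23, which are 9 of 15 interferon genes and 2 of 10 class I genes with a window. The letters of the gamma-activated site, TTC, any 3 bases and GAA, which read the same on both strands, stood in 5 of the 29 windows (Ifit2, Irf1, Oas1a, Bst2 and Psmb8) and in 8.30% of all windows. In 1 member window the motifs overlapped. A match describes letters and does not show that a factor binds. The windows are printed 5' to 3' on the gene's own strand with the response element matches (on either strand) in capitals, first as 250 bases for genes on which the class differences below turn, then as the stretch around the match for the other genes:
Isg15 (chr4:156200819-156201068, minus strand): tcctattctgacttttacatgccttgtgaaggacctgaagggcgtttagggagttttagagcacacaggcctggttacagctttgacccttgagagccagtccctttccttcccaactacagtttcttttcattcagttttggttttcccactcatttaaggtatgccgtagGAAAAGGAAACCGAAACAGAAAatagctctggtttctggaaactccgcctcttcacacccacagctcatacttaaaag
Ifit1 (chr19:34640639-34640888, plus strand): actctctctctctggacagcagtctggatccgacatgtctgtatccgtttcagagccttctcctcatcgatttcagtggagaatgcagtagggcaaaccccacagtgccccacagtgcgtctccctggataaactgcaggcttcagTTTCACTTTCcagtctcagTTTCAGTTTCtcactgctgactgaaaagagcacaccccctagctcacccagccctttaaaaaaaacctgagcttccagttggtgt
Gbp2 (chr3:142620413-142620662, plus strand): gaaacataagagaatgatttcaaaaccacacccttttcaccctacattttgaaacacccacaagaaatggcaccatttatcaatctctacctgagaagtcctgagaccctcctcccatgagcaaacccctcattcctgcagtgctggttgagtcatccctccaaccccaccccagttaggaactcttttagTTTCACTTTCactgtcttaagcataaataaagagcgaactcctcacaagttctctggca
B2m (chr2:122147437-122147686, plus strand): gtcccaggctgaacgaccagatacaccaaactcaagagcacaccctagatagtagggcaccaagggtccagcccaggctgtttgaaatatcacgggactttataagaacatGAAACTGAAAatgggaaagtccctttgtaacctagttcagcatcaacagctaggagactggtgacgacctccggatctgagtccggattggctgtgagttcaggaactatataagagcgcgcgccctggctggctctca
Ifit3 (chr19:34583358-34583431, plus strand): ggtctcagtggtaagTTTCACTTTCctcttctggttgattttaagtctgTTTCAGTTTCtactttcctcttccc
Rsad2 (chr12:26456548-26456587, minus strand): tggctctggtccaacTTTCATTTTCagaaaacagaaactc
Oas1a (chr5:120907516-120907560, minus strand): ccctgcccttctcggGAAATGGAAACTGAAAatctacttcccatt
Bst2 (chr8:71537572-71537617, minus strand): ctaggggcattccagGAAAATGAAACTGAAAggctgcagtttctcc
Gbp3 (chr3:142559984-142560029, plus strand): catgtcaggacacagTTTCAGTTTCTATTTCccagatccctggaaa
Stat2 (chr10:128270261-128270300, plus strand): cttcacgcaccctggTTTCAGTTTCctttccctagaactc
H2-T23 (chr17:36032801-36032840, minus strand): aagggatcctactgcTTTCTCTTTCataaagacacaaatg

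Summed over the 19 interferon genes, epithelial cells had the lowest level of the 5 classes within each tumour and mesothelial cells the highest. The epithelial sums were 167, 194 and 83.0 CPM in tumours 1, 2 and 3 (148 ± 57.9, SD, n = 3). Fibroblasts had 649, 408 and 336 CPM (464 ± 164), mural cells 548, 640 and 246 (478 ± 206) and endothelial cells 702 and 274 in tumours 1 and 3 (488 ± 303, n = 2). These classes overlapped with each other, and none overlapped with the epithelial sums. Mesothelial cells had 2121, 1906 and 1834 CPM (1954 ± 149), above every other sum. Their level was 12.7, 9.83 and 22.1 times the epithelial level of the same tumour, while the fibroblast level was 3.88, 2.103 and 4.05 times as high.

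The 12 class I genes gave the same ends of the order with a narrower range. Epithelial cells had 921, 956 and 1013 CPM (964 ± 46.5, SD, n = 3), fibroblasts 2114, 1765 and 2118 (1999 ± 203), and mural cells 2645, 2386 and 2573 (2535 ± 133). Endothelial cells had 4753 CPM in tumour 1 and 2441 in tumour 3 (3597 ± 1634, n = 2), so their place above or among the mural sums differed between these tumours. Mesothelial cells had 6453, 6793 and 6293 CPM (6513 ± 255), 6.21 to 7.10 times the epithelial level of the same tumour. No stromal sum came as low as the epithelial range and none came as high as the mesothelial range. The mesothelial and stromal classes were compared by these values only, with no test between them.

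**Figure D1:**
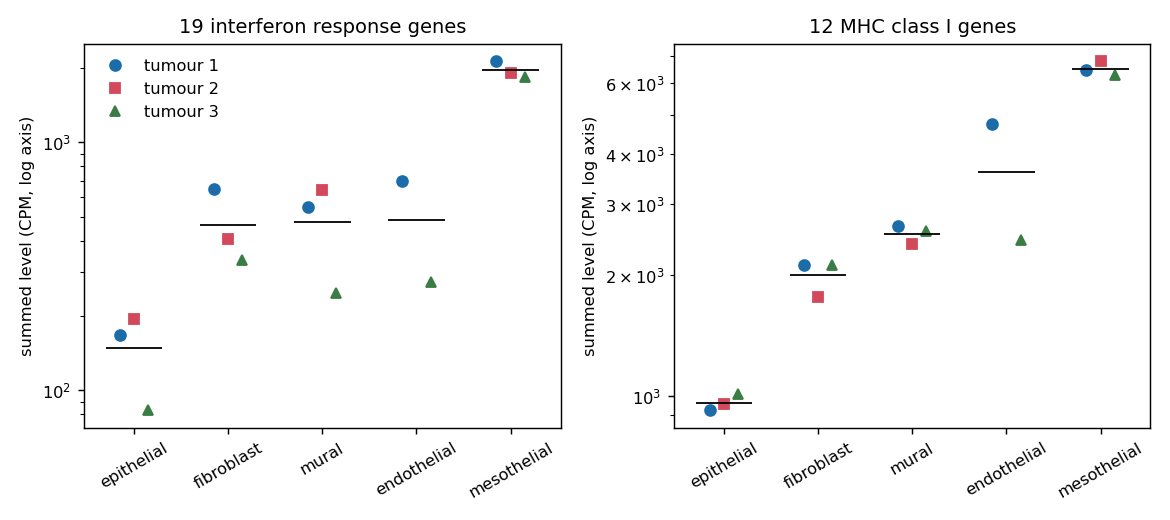
Summed level of the 19 interferon response genes (left) and the 12 MHC class I genes (right) in each cell class, in CPM on a log axis. Points are the 3 tumours and horizontal lines the class means; endothelial cells have no point for tumour 2, which had 18 such cells. Epithelial sums lie lowest (83.0 to 194 and 921 to 1013 CPM) and mesothelial sums highest (1834 to 2121 and 6293 to 6793 CPM) in both panels.

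Gene by gene, 29 of the 31 members had their highest class mean in mesothelial cells, the exceptions being Ifit2 and Nlrc5, which were highest in endothelial cells. The lowest class mean was in epithelial cells for 23 members, in mural cells for 5 (Usp18, Rsad2, Ifi44, Tapbp and H2-T23) and in endothelial cells for 2 (Oas1a and Zbp1), and Mx1 was at 0 in both of these classes. How many of all genes had their highest or lowest mean in these classes was not counted. The numbers include Mx1 and Nlrc5, whose counts were low. Of the 29 members with enough counts to be tested, 10 stood in all 3 mesothelial sums above every sum of the other classes (B2m, Zbp1, Gbp2, Oasl2, Irf7, Tapbp, H2-K1, Psmb8, H2-T23 and Ifit3), a pattern found in 4.04% of all 11895 tested genes. Another 6 lay in all 3 epithelial sums below every other sum (B2m, Gbp2, Tap1, Psmb8, Tap2 and Ifit2), against 4.84% of all tested genes. H2-T23, which encodes the non-classical class I molecule Qa-1, was the only member whose mural sums lay below all others (22.5, 32.4 and 31.8 CPM), against 1.65% of all tested genes. No member lay above every other sum in epithelial cells (8.04% of all tested genes), fibroblasts (1.13%), mural (4.56%) or endothelial cells (7.98%), and none lay below every other sum in fibroblasts (0.193%), mesothelial (4.5%) or endothelial cells (3.22%). For Mx1, an antiviral GTPase, and Nlrc5, the transactivator of class I genes, the counts were too low for the tests. Mx1 had 0.625, 0.800 and 0.282 CPM in epithelial cells and 0, 2.76 and 0 in mesothelial cells. Nlrc5 had 0.197, 0.229 and 0.106 CPM in epithelial cells and reached 6.38 CPM in the endothelial cells of tumour 1.

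Mesothelial levels of single members show how far the classes stood apart. Gbp2, a guanylate-binding protein of the response to intracellular pathogens, had 154, 144 and 72.6 CPM in mesothelial cells of tumours 1, 2 and 3 and 2.53, 3.89 and 1.02 CPM in epithelial cells. Oasl2, of the oligoadenylate synthetase family, had 174, 166 and 123 CPM against 3.62, 5.54 and 0.915. H2-K1, a classical class I heavy chain, had 996, 1055 and 1020 CPM against 169, 116 and 145. In these genes the lowest mesothelial sum lay far above the highest epithelial one. Others varied between the tumours within the mesothelial class: Isg15, a ubiquitin-like modifier, had 87.2, 237 and 21.8 CPM, and Rsad2 (viperin) 5.90, 75.9 and 1.81. Bst2 (tetherin), which holds virus particles at the cell surface, went the other way, with 925, 214 and 1275 CPM. Tumour 2 was thus the highest mesothelial sum for Isg15 and Rsad2 and the lowest for Bst2.

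**Figure D2:**
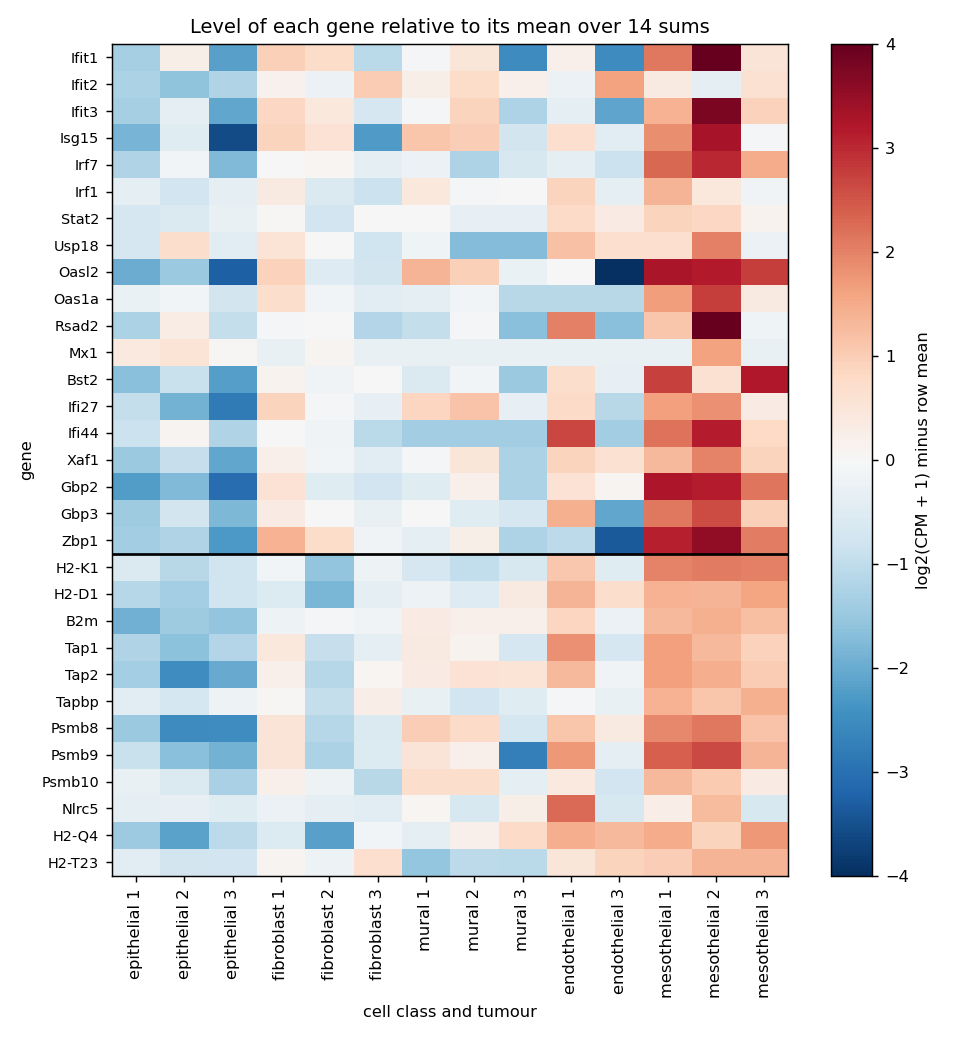
Level of each of the 31 genes (rows, interferon response above the line and MHC class I below it) in the 14 sums of cell class and tumour (columns), as log2(CPM + 1) minus the row mean, with red above and blue below the mean and the scale limited to 4 in each direction. Most rows are red in the mesothelial columns and blue in the epithelial columns, with B2m, Gbp2, Psmb8, Tap1, Tap2 and Ifit2 lowest in all 3 epithelial columns.

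Compared with fibroblasts, epithelial cells had lower levels of 20 of the 29 tested members and a higher level of none (edgeR quasi-likelihood test with Benjamini-Hochberg adjustment over 11895 genes). Of all genes tested, 24.2% were lower and 17.8% higher in epithelial cells. No other member had an unadjusted p under 0.05, and DESeq2 gave 19 lower and 0 higher. The 20 were 12 of 18 interferon genes and 8 of 11 class I genes. The median log2 fold change was -1.38 over the members and -0.04 over all tested genes. Near-identical copies (Ifit3 and Ifit3b, Oas1a and its paralogs, the Gbp genes, and the class I heavy chains) can share reads, so the split between such genes is uncertain.

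Among the antiviral effectors, Isg15 had 5.63, 16.2 and 1.02 CPM in the epithelial cells of tumours 1, 2 and 3 and 44.1, 34.6 and 4.04 in fibroblasts. It was lower in epithelial cells of every tumour, although the class ranges overlapped, with tumour 3 low in both, and the log2 fold change was -2.08 ± 0.37 (SE, adjusted p = 0.000327). Ifit1, Ifit2 and Ifit3, which bind viral RNA or its translation machinery, were lower by log2 fold changes of -2.05 ± 0.44, -3.86 ± 0.55 and -2.68 ± 0.54. Oasl2 and Gbp2 were lower by -2.55 ± 0.39 and -2.66 ± 0.29. Zbp1, a sensor of Z-form nucleic acids that can trigger cell death, had 2.93, 3.43 and 1.09 CPM against 26.0, 16.1 and 8.25, with no overlap between the classes (-2.83 ± 0.23, adjusted p = 2.92e-07). How many of all tested genes did not overlap between epithelial cells and fibroblasts was not counted. Ifi27, Xaf1, Gbp3 and Bst2 were also lower, with log2 fold changes from -2.38 to -1.60. The regulators were less uniform. Irf7, the factor that amplifies type I interferon production, was lower (-1.15 ± 0.31, adjusted p = 0.00817), while Irf1, an activator induced by type II interferon, was at -0.20 ± 0.23, Stat2 at -0.39 ± 0.27 and Usp18, the protease that removes ISG15 and damps receptor signalling, at -0.15 ± 0.53, all short of the threshold.

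Within the class I pathway, B2m, the light chain, had 370, 530 and 474 CPM in epithelial cells and 1230, 1370 and 1270 in fibroblasts, with no overlap (log2 fold change -1.55 ± 0.21, adjusted p = 3.57e-05). As for Zbp1, the share of all genes without overlap was not counted. H2-K1 had 169, 116 and 145 CPM in epithelial cells and 231, 83.9 and 215 in fibroblasts, which overlapped (-0.30 ± 0.29, adjusted p = 0.455), and H2-D1, the other classical heavy chain, was at -0.27 ± 0.25 (adjusted p = 0.409). For both heavy chains the fibroblasts of tumour 2, with the low fibroblast marker sum, held the lowest fibroblast level. The peptide transporter subunits Tap1 and Tap2 were lower by -1.37 ± 0.32 and -1.95 ± 0.31, the catalytic immunoproteasome subunits Psmb8, Psmb9 and Psmb10 by -1.95 ± 0.30, -1.38 ± 0.39 and -0.44 ± 0.14, and the non-classical H2-T23 and H2-Q4 by -0.90 ± 0.20 and -0.82 ± 0.31. Tapbp, the chaperone tapasin, was at -0.31 ± 0.17 (adjusted p = 0.162). Without tumour 1 the number of lower members was 11, with the calls of Gbp3, Irf7, Bst2, Psmb10, Psmb9, Tap1, H2-Q4, Ifit3 and Ifit1 lost. It was 20 of 27 tested without tumour 2, where Psmb10 was lost and Tapbp gained, and 14 without tumour 3, where the calls of Irf7, Bst2, Psmb9, H2-Q4 and H2-T23 were lost and Ifit2 had too few counts.

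Compared with mural cells, 15 of 29 members were lower in epithelial cells, against 21.8% of all tested genes, and 1 was higher, against 20.2%. The median log2 fold change was -1.39 over the members and 0.01 over all tested genes. The lower members were 7 of 18 interferon genes (Ifit2, Isg15, Oasl2, Ifi27, Xaf1, Gbp2 and Zbp1, from -3.83 to -1.47) and 8 of 11 class I genes. Tap2 and Psmb8 had the lowest values of the class I genes, -2.66 ± 0.36 and -2.64 ± 0.33. H2-D1, which did not pass the threshold against fibroblasts, was lower than in mural cells by -0.98 ± 0.25 (adjusted p = 0.00572), with 196, 171 and 249 CPM in epithelial and 379, 307 and 564 CPM in mural cells. H2-K1 was at -0.04 ± 0.30. H2-T23 was the 1 higher member, with 50.1, 40.9 and 39.6 CPM in epithelial cells (0.65 ± 0.23, adjusted p = 0.0366). Its call was lost without tumour 1 (0.41, adjusted p = 0.365), where Usp18 was called higher instead, with 0 mural UMIs in both other tumours. Ifi44 had 0 UMIs in every mural sum, which allows up to 1.92, 3.03 and 2.51 CPM (3 counts per sum, counting error only), and no fold is given. Leaving out tumour 1, 2 or 3 gave 12, 16 and 14 lower members. The calls of Xaf1, Psmb9 and Tap1 were lost without tumour 1, those of Psmb9 and Tap1 without tumour 2 (which gained Gbp3, Irf7 and Bst2), and Ifit2 had too few counts without tumour 3. Psmb9 was lower in 2 of 3 tumours (edgeR adjusted p = 0.0451). Its call was also lost with DESeq2, RLE factors, no replicate block, other gates, doublets kept, thinning and the 2-class fit.

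Compared with mesothelial cells, 28 of 29 members were lower in epithelial cells, against 20.7% of all tested genes, and none was higher, against 18.9%. The 28 were also the only members with an unadjusted p under 0.05, and DESeq2 called 28 lower and 0 higher. The median log2 fold change was -3.73 over the members and 0.06 over all tested genes. Interferon genes were led by Gbp2 (-5.82 ± 0.33), Oasl2 (-5.82 ± 0.43) and Zbp1 (-5.19 ± 0.26), and class I genes by Psmb8 (-4.14 ± 0.34) and Psmb9 (-4.12 ± 0.44). The heavy chains that had not passed the threshold against fibroblasts were lower here, H2-K1 by -3.001 ± 0.32 and H2-D1 by -2.68 ± 0.26 (adjusted p = 4.75e-06 and 2.29e-06). The smallest called difference was that of Irf1, -1.32 ± 0.27 (adjusted p = 0.00140), with 17.1, 12.6 and 16.7 CPM in epithelial and 59.0, 30.4 and 19.96 CPM in mesothelial cells. Usp18 alone was not called (-1.43 ± 0.69, adjusted p = 0.119). Without tumour 1 the calls of Stat2, Irf1 and Ifit2 were lost, leaving 25 lower members; 27 of 27 tested were lower without tumour 2 and 27 without tumour 3, where Ifit2 had too few counts. The mesothelial sums hold 226, 72 and 61 cells. The filter on low counts took all classes together, so a member low elsewhere could enter the tests through its mesothelial sums. Oas1a, for example, was at most 1.03 CPM in epithelial and 13.8 CPM in mesothelial sums. For such members the direction was in part set by the filter. With no filter, 28 of 31 members were lower, against 2585 of 20607 genes.

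Compared with endothelial cells of tumours 1 and 3, 18 of 29 members were lower in epithelial cells, against 14.8% of all tested genes, and none was higher, against 13.9%. At an unadjusted p under 0.05 there were 21, all lower, and DESeq2 called 19 lower and 0 higher. The median log2 fold change was -1.83 over the members and 0.04 over all tested genes. They were 8 interferon genes and 10 class I genes, the exception in class I being Tapbp (-0.02 ± 0.24). H2-D1 had 1133 and 707 CPM in the endothelial cells of tumours 1 and 3 against 196 and 249 CPM in the epithelial cells of those tumours (-1.91 ± 0.29, adjusted p = 0.000183). Without tumour 1 the only endothelial sum was that of tumour 3 (63 cells), so a lost call there cannot be told from lost replication. Gbp3, Ifi44, Rsad2 and H2-K1 then had the opposite sign, and the median log2 fold change over the members was -0.64. Others stayed as low or lower, among them Isg15 (-3.28), Psmb8 (-2.95) and Ifit2 (-4.87). Gbp3, Rsad2 and Ifi44 had 0 UMIs in the endothelial cells of tumour 3, which allows up to 12.6 CPM, and 10.4, 11.96 and 15.95 CPM in those of tumour 1. In the endothelial cells of tumour 2, too few for the tests, they were at 32.5, 8.12 and 32.5 CPM.

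Endothelial cells and fibroblasts differed in fewer members. Higher in endothelial cells were H2-D1 (1.64 ± 0.28, adjusted p = 0.000862), H2-Q4 (2.01 ± 0.40, adjusted p = 0.00278), Tap1, Ifi44 and Rsad2, which are 5 of 29, against 9.12% of all tested genes. Zbp1 was lower (-2.64 ± 0.52, adjusted p = 0.00234), 1 of 29 against 11.5%. The median log2 fold change was 0.42 over the members and -0.11 over all tested genes. Without tumour 1 or tumour 3 a single endothelial sum was left, so calls lost or gained there cannot be told from lost replication. Ifi44, Rsad2 and Tap1 changed sign without tumour 1. Without tumour 2 the higher members numbered 3, and the calls of Rsad2 and Tap1 were lost. Oas1a, an enzyme that makes the activator of RNase L, had 0 UMIs in every endothelial sum, which allows up to 2.39 CPM in tumour 1 and 12.6 CPM in tumour 3.

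**Figure D3:**
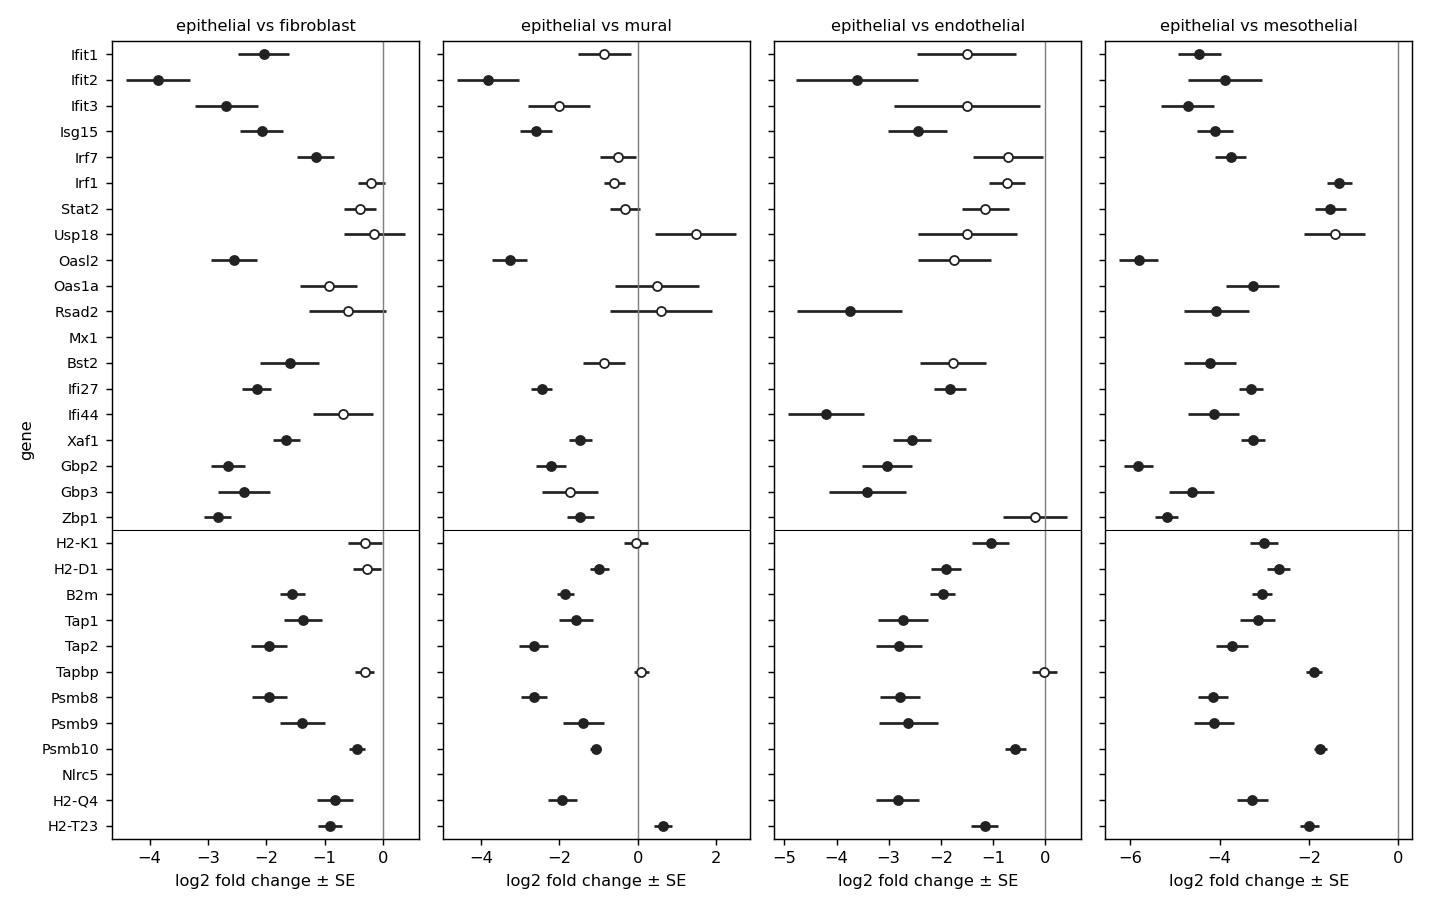
Log2 fold change of each tested member in epithelial cells against 4 other classes, with standard errors as bars; filled points passed the adjusted threshold of 0.05 and open points did not. Mx1 and Nlrc5 were not tested, and Ifi44 against mural and Oas1a against endothelial cells are not drawn because those classes had no UMI. Against mesothelial cells 28 members are lower, against fibroblasts 20, against endothelial cells 18 and against mural cells 15, with H2-T23 as the 1 higher member against mural cells.

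Other genes of the pathway gave the setting of these differences, from 96 listed genes of which 74 were tested. The 8 listed interferon ligands (Ifnb1, Ifna2, Ifna4, Ifng, Ifnl2, Ifnl3, Ifne and Ifnk) were too low to test: 4 UMIs of Ifne and 4 of Ifnk were counted over all 14 sums, and 0 of the other 6. Of the 6 receptor chains, 2 were higher and 1 lower in epithelial cells against fibroblasts, and 2 and 2 against mural cells. Of all tested genes, 17.8% were higher and 24.2% lower against fibroblasts, and 20.2% and 21.8% against mural cells. Ifnar2, of the type I receptor, was lower in epithelial cells against every class (from -2.34 ± 0.19 against mesothelial to -1.11 ± 0.24 against endothelial cells). Ifngr1, the ligand-binding chain of the type II receptor, was higher against fibroblasts, mural and mesothelial cells (1.06 ± 0.18, 1.24 ± 0.19 and 1.36 ± 0.20), while Ifngr2, the other chain of that receptor, was lower against mural cells (-1.47 ± 0.19). Ifnar1, the other chain of the type I receptor, and Il10rb, which type III interferons share with interleukins, were not called against any of the 4 classes. Ifnlr1, of the type III receptor, was higher against fibroblasts and mural cells (1.68 ± 0.40 and 3.26 ± 0.82). Jak1, a kinase of these receptors, was lower against all 4 classes, by -1.46 ± 0.19 to -0.50 ± 0.16.

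Of 33 other interferon-stimulated genes tested, 17 were lower and 5 higher in epithelial cells than in fibroblasts, 16 and 6 against mural cells, 26 and 1 against mesothelial cells, and 15 and 1 against endothelial cells. Of all tested genes, 24.2% were lower and 17.8% higher against fibroblasts, and 21.8% and 20.2% against mural cells. The shares were 20.7% and 18.9% against mesothelial cells and 14.8% and 13.9% against endothelial cells. The lowest against mesothelial cells were Ifi27l2a (-7.72 ± 0.55), Ifi47 (-5.92 ± 0.39) and Iigp1 (-5.87 ± 0.53). Some of this list went the other way, in numbers not above the shares of all genes. Slfn2, of the Schlafen family, was higher in epithelial cells against fibroblasts, mural and mesothelial cells (1.77 ± 0.38, 4.23 ± 0.67 and 1.45 ± 0.52), and Oasl1 and Ly6e were higher against fibroblasts and mural cells. Of 14 other class I genes tested, 9 were lower and 1 higher against fibroblasts, 5 and 0 against mural cells, 12 and 0 against mesothelial cells, and 7 and 1 against endothelial cells. Among them, H2-M3, which presents formylated peptides, was lower against all 4 classes, from -3.19 ± 0.34 to -2.19 ± 0.29, and H2-Q7 was lower by -5.58 ± 0.42 against mesothelial cells. The 3 listed constitutive proteasome subunits, Psmb5, Psmb6 and Psmb7, whose places Psmb8, Psmb9 and Psmb10 take in the immunoproteasome, were called in 0 of the 5 class comparisons; their lowest unadjusted p, 0.0199, was that of Psmb6 between endothelial cells and fibroblasts.

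The summed interferon genes differed between the tumours more than the summed class I genes. Tumour 3 had the lowest interferon sum in all 5 classes, and the highest over the lowest tumour was 2.34-fold in epithelial cells, 1.93-fold in fibroblasts, 2.60-fold in mural, 2.57-fold in endothelial and 1.16-fold in mesothelial cells. Single genes followed: 14 of the 19 were lowest in tumour 3 in epithelial cells, 15 in fibroblasts, 14 in mural and 16 in mesothelial cells, and 16 were lower there than in tumour 1 in endothelial cells. The share of all genes lowest in tumour 3 was not counted, so these numbers are not set against a background. Bst2 weighs heavily in the mesothelial sum and ran against most of the list, from 214 CPM in tumour 2 to 1275 in tumour 3. The narrow range of that sum thus does not hold for its single genes. The class I sum was lowest in a different tumour for different classes, and its highest over lowest value was 1.08 to 1.20 outside the endothelial cells. B2m is the largest part of that sum, with 1230 to 1370 CPM in fibroblasts. Other class I genes varied more there, H2-K1 from 83.9 to 231 CPM and H2-D1 from 123 to 332. Tumour 3 was also the shallowest library, with a median of 6025 UMIs per barcode, and the part of depth in its interferon sums was not tested. With 1 sample per tumour this is a description, and there is no test.

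The authors' deposited table of 19 clusters gives the same 31 genes for each cluster of cells. In the authors' deposited table, 1 cluster (their number 9) has a log2 fold change of 8.40 for Upk3b and 8.39 for Lrrn4, and 28 of the 31 members are higher there at an adjusted p below 0.05, against 5.99% of all genes. The exceptions are Stat2 (1.15), Mx1 (0.14) and Nlrc5 (1.94). The leading values in the authors' deposited table for that cluster are Gbp2 (4.51), Oasl2 (4.44) and Zbp1 (3.92). Cluster 4 of the authors' deposited table has 10 members higher, against 10.0% of all genes, and no other cluster has more than 4.

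Within epithelial cells, the module was spread unevenly from cell to cell. Each cell was thinned at random to 3000 UMIs, which kept 3136 of 3228 epithelial cells of tumour 3 and all of those of the other tumours. The summed 31 genes had a median of 3 UMIs in every tumour and means of 4.04, 3.49 and 3.39 in tumours 1, 2 and 3. The variance was 5.42, 4.12 and 2.83 times the mean, and 9.70%, 7.57% and 7.11% of cells had no UMI of any member. The highest cell had 45, 86 and 61 UMIs. The medians were equal, and the tumours differed in the upper tail.

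The interferon and class I genes had different tails. For the 19 interferon genes, 62.4%, 67.0% and 80.0% of epithelial cells had 0 UMIs, and the variance was 2.03, 5.07 and 1.24 times the mean, so that tumour 2 was widest and tumour 3 close to the value of 1 that independent counting would give. For class I the order was another, with 4.90, 2.54 and 2.84. The single highest cell of tumour 2 had 47 interferon and 39 class I UMIs of its 3000, 26 of them from 8 antiviral genes, beside 58 UMIs of epithelial markers and 0 of immune markers. Without this 1 cell the variance of the interferon sum in tumour 2 was 3.03 times the mean, still the widest of the tumours. The 3 highest cells of tumour 3 had 61, 44 and 40 class I UMIs and 0 interferon UMIs. Across cells, Pearson's r between the interferon and class I sums was 0.42, 0.42 and 0.11 in the 3 tumours (2372, 1638 and 3136 cells, which share a library and a fixed depth), given as a description, and 0.29 in tumour 2 without that cell. Without thinning, with each cell scaled to a common total, the variance over the mean of the whole module was 16.1, 13.5 and 7.64, in the same order of tumours.

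**Figure D4:**
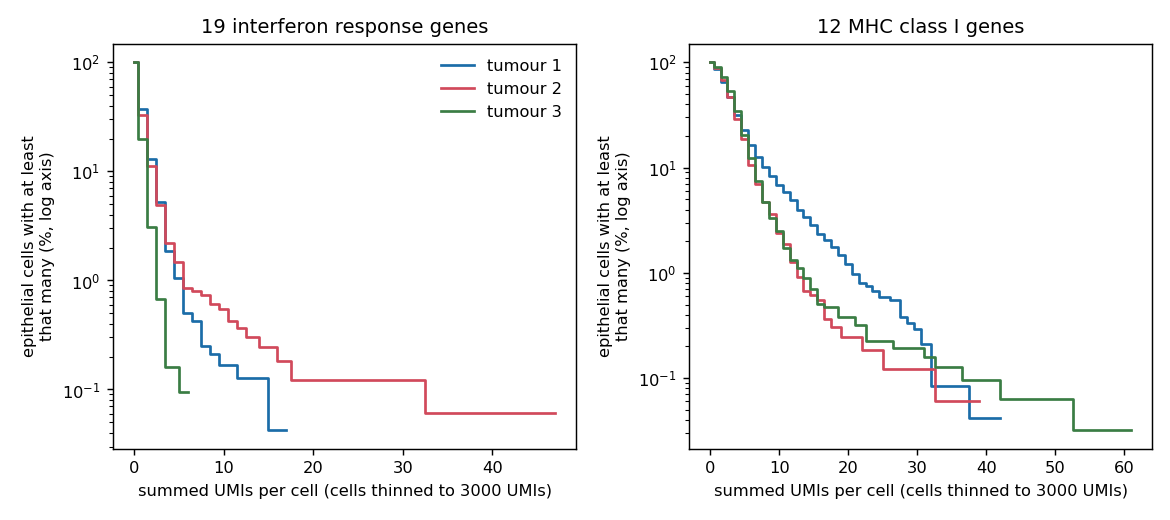
Share of epithelial cells (percent, log axis) with at least the number of UMIs on the horizontal axis, after thinning each cell to 3000 UMIs, for the 19 interferon response genes (left) and the 12 MHC class I genes (right); lines are the 3 tumours. On the left tumour 2 reaches 47 UMIs and tumour 3 stops at 6, while on the right tumour 3 reaches 61 and tumour 1 has the highest 95th and 99th percentiles, 11 and 20 UMIs.

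In epithelial cells that carried antiviral transcripts, 4 of 11 tested class I genes (H2-K1, H2-D1, B2m and Psmb8) were higher. Cells with at least 1 thinned UMI summed over Ifit1, Ifit2, Ifit3, Isg15, Usp18, Oasl2, Rsad2 and Irf7 (108, 108 and 62 cells, 4.55%, 6.59% and 1.98% of epithelial cells) were compared with cells that had none. The 8 genes chose the cells and were left out. Of the other members, 16 had enough counts, and 6 of these were higher in the antiviral-positive cells and 0 lower (edgeR quasi-likelihood test), against 0.862% and 0.145% of 10326 tested genes. At an unadjusted p under 0.05 there were 11, all higher, and DESeq2 called 5 higher and 0 lower. The median log2 fold change was 1.64 over 5 interferon genes and 0.98 over 11 class I genes, against -0.04 over all tested genes.

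Bst2 had 148, 204 and 43.0 CPM in the antiviral-positive cells of tumours 1, 2 and 3 and 37.5, 57.3 and 26.5 in the others, higher in 3 of 3 tumours (1.64 ± 0.21, adjusted p = 1.57e-06). H2-K1 had 441, 256 and 269 CPM against 206, 117 and 149 (0.98 ± 0.14), and H2-D1 522, 346 and 489 against 242, 166 and 265 (0.96 ± 0.13). B2m had 914, 874 and 602 CPM against 430, 479 and 473 (0.72 ± 0.13, adjusted p = 0.000382). The values of H2-K1, H2-D1 and B2m did not overlap between the 2 kinds of cell, while those of Bst2 did, with tumour 3 low in both. How many of all tested genes did not overlap in this contrast was not counted. Psmb8 (1.67 ± 0.33) and Ifi27 (1.01 ± 0.23) were higher too, but the call of Psmb8 was lost without tumour 1 and without tumour 2, and that of Ifi27 without tumour 2 and without tumour 3. Tap1, Tap2, Psmb9, H2-Q4, Xaf1 and Stat2 had log2 fold changes of 1.23 to 2.06 with standard errors of 0.54 to 0.90 and were not called, and H2-T23, Irf1, Psmb10 and Tapbp lay between 0.21 and 0.73 without a call. The number of higher members was 5, 4 and 7 without tumours 1, 2 and 3. Of 23 other interferon-stimulated genes tested, 6 were higher, among them Ifi27l2a (2.25 ± 0.57), against 0.862% of all tested genes.

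**Figure D5:**
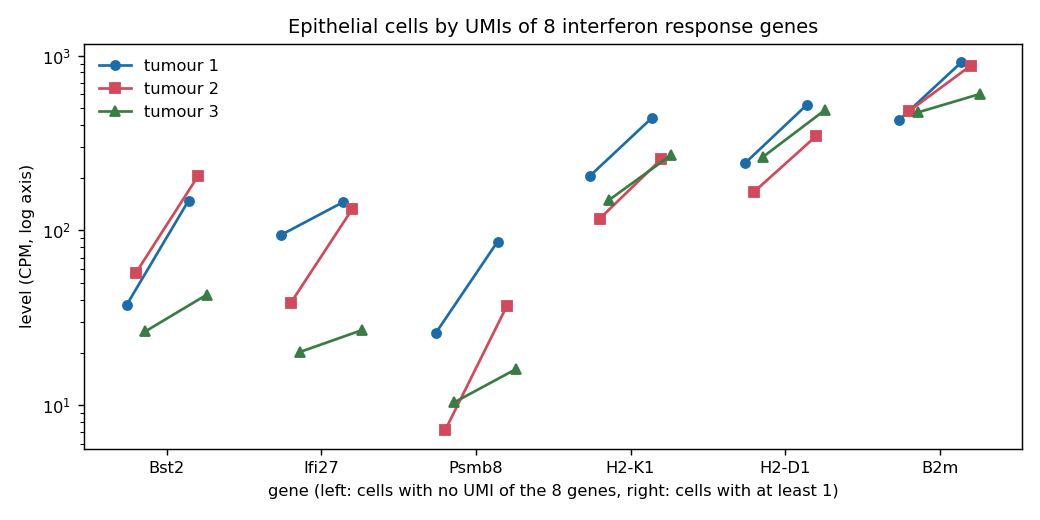
Levels of the 6 called members (CPM, log axis) in epithelial cells with no UMI of 8 antiviral genes (left point of each pair) and with at least 1 (right point), each cell thinned to 3000 UMIs; lines join the 2 values of a tumour. All 18 lines run upward, from 37.5 to 148 CPM for Bst2 in tumour 1 and from 473 to 602 CPM for B2m in tumour 3.

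Outside the members, the genes with the highest fold changes in the antiviral-positive cells were Tff3 (3.74 ± 0.29), a trefoil peptide of goblet cells, the chemokine Cxcl10 (3.54 ± 0.55), Rtp4 (3.44 ± 0.47), Wt1 (3.43 ± 0.75), Ces2a, Fcgbp, the MHC class II genes H2-Aa (2.76 ± 0.53) and H2-Ab1 (2.55 ± 0.50), Ccl11 and 2010109I03Rik. The lowest were Gp2 (-2.40 ± 0.59), Clps (-2.18 ± 0.27) and Cpa1 (-1.72 ± 0.41), which encode proteins of pancreatic acinar cells, with Tradd, Nes, Ggct, Mcpt8, Tff2, Agr2 and Hmga2. Fibroblast markers moved with the contrast, at 1019, 376 and 317 CPM in the antiviral-positive cells of tumours 1, 2 and 3 against 286, 171 and 276 in the others. Mural markers moved with it too, at 136, 111 and 48.4 CPM against 56.7, 61.7 and 27.65. Mesothelial markers, among them Wt1, were at 232, 312 and 527 CPM against 275, 298 and 692, lower in tumours 1 and 3 and higher in tumour 2. Acinar markers were at 543, 145 and 3054 CPM against 2581, 79.3 and 1963, lower in tumour 1 and higher in the other two. Immune markers were at 12.3, 15.4 and 10.8 CPM against 9.87, 17.4 and 11.4. The antiviral-positive cells also had fewer UMIs before thinning (medians of 8632, 8354 and 6263 against 11460, 9300 and 8099). The part of other cells' RNA and of depth in this result was not tested. With cells that passed only the epithelial pair, 6 members were again higher, and without cells that had an immune UMI also 6.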

How the data were processed

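Single-cell 3' RNA libraries (chemistry version 2) of 3 KPf/fC tumours were analysed. The counts are UMI counts per gene and barcode, deposited by the authors in 1 matrix without normalization, and the barcode suffix gives the tumour, per the labels. The submitters' processing notes name Cell Ranger 2.1.1 and Seurat 3.0 without a role; the genome build of the counts was not stated. For every cluster, the authors' deposited table lists genes with log2 fold changes and adjusted p-values; how those were tested was not stated.

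Cells with at least 500 genes and at most 20% mitochondrial UMIs were kept, and doublets called by Scrublet in each tumour (74, 94 and 144; scanpy 1.11.5) were removed, leaving 5728, 5978 and 7284 cells. A cell that passed 1 marker pair besides the fibroblast pair went to that class, and a cell that passed several was left out. Counts were summed per tumour and class over at least 20 cells (14 sums), and tested with edgeR 4.0.16 (TMM, quasi-likelihood, R 4.3.3) with all classes in 1 fit, the tumour as a block, the 10 gate markers left out and Benjamini-Hochberg adjustment at 0.05. The block follows from the design, since all classes of a tumour share a library; deviations of the classes of 1 tumour correlated at 0.24 to 0.70. Standard errors were derived from the fold changes and the F statistics. Genes with low counts were left out before the tests by a filter (filterByExpr) over all classes of a fit. CPM are from each sum's own total. On simulated counts the class test recovered 53 of 100 genes changed by 1 on the log2 scale and 100 of 100 changed by 2, and the test within epithelial cells 13 and 58. The simulation gave every gene the same assumed dispersion, had no tumour effect and changed only genes above a minimum of expected counts. Its recovery thus need not hold for the real data or for members with low counts.

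The test within epithelial cells was designed with at least 2 antiviral UMIs (17, 34 and 4 cells), which could not be fitted because tumours 1 and 3 had under 20 such cells; a threshold of at least 1, listed beside it, is reported, with 3 near copies of the 8 genes left out too, and its own alternatives were chosen after seeing the data. Named genes are the members and, among genes with the same sign in every tumour, up to 3 called genes per list and direction of the other pathway genes and the 10 highest and 10 lowest called genes within epithelial cells; Ifnar1 and Il10rb were named after their values were seen. The members and lists were chosen with earlier results of these data known. Alternatives were DESeq2 1.42.0, RLE factors, no filter, no replicate block, each tumour left out, other gates, doublets kept, thinning and 2-class fits. UMI intervals and floors cover counting error only. Some items of the design and of the pathway lists are not reported here.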

Additional observations from a re-analysis of the deposited data

Results flagged for a closer look

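Cells that passed no marker pair entered no comparison. Their summed 31 members stood at 1261, 1744 and 1768 CPM in tumours 1, 2 and 3, above what a count of 0 allows. The 18 endothelial cells of tumour 2, too few for the tests, had 4549 CPM of the members.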

How the results depend on the processing

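Of 1946 values of single members under an alternative, 113 lost the call, 41 gained one and 7 of called members changed sign. The other 1785 kept their side of the threshold. Among these, a change of sign in a member called in neither fit was not counted. Of 308 counts and spreads, 265 stayed within 1.5 times the reported count or within 1 SD. With no filter on low counts, 1 member was higher in epithelial cells than in fibroblasts, 8 were higher in endothelial cells than in fibroblasts, and 39 genes were lower in antiviral-positive cells. With no replicate block, epithelial cells against fibroblasts gave 13 lower members, 1225 higher and 1914 lower genes; mural cells gave 0 higher members, mesothelial cells 1379 higher genes, and endothelial cells 11 lower members and 947 higher genes. Endothelial cells against fibroblasts then gave 2 higher and 0 lower members (5 at an unadjusted p under 0.05), with 686 higher and 648 lower genes, and antiviral-positive cells 0 higher members, 0 higher and 0 lower genes by edgeR, with 7 members at an unadjusted p under 0.05. DESeq2 gave 3 higher members in endothelial cells against fibroblasts, and 49 higher and 4 lower genes in antiviral-positive cells. Counting a cell in each class whose pair it passed gave 8 higher members in endothelial cells against fibroblasts, thinning to 3000 UMIs gave 3 (and 1576 genes lower than in mesothelial cells), and a fit of those classes alone gave 2 lower. Cells that passed exactly 1 pair gave 55 higher genes in antiviral-positive cells; too few mesothelial cells passed only 1 pair for a comparison. Without thinning, the module's variance over mean was 16.08, 13.5 and 7.638.

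Leaving out each tumour in turn gave 11 to 20 lower members, 1429 to 2261 higher and 1694 to 2497 lower genes against fibroblasts; 12 to 16 lower members, 1633 to 2139 higher and 1570 to 2209 lower genes against mural cells; and 25 to 27 lower members, 1170 to 1907 higher and 1399 to 2312 lower genes against mesothelial cells. Against endothelial cells it gave 1 to 19 lower members, 330 to 1718 higher and 476 to 1713 lower genes. Endothelial cells against fibroblasts had 0 to 7 higher and 0 to 1 lower members, with 234 to 1089 higher and 114 to 1344 lower genes. Antiviral-positive cells had 4 to 7 higher members, 57 to 86 higher and 14 to 27 lower genes. For called members whose log2 fold change changed sign without tumour 1, the range with each tumour left out in turn is given. In epithelial against endothelial cells they ranged from -3.869 to 4.995 for Gbp3, -4.626 to 3.949 for Ifi44, -4.451 to 5.206 for Rsad2 and -1.546 to 0.02261 for H2-K1. In endothelial cells against fibroblasts they ranged from -3.878 to 3.696 for Ifi44, -4.561 to 3.399 for Rsad2 and -0.3188 to 1.679 for Tap1. Without tumour 1 or 3, 1 endothelial sum was left and was assumed to vary like the other groups, and fits against 0 UMIs depend on the prior count. The cause of the other changes was not tested. Thresholds of 2 and 3 antiviral UMIs could not be fitted.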

Other observations

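Epithelial cells with the most class I UMIs differed between the tumours in the interferon genes they held. The cells with at least 15 class I UMIs of 3000 were taken after the values had been seen, so no test is given. They numbered 68, 10 and 22 in tumours 1, 2 and 3 (2.87%, 0.611% and 0.702% of epithelial cells). In tumour 3, 13 of the 22 had 0 interferon UMIs, against 14 of 68 in tumour 1 and 1 of 10 in tumour 2. Mean interferon UMIs were 2.90, 8 and 0.773 in these cells and 0.542, 0.557 and 0.238 in the other epithelial cells. Without the 1 cell of tumour 2 with 47 interferon UMIs, the mean of the other 9 was 3.67. An immune marker UMI was present in 2, 0 and 0 of them, and 14, 4 and 5 passed the fibroblast pair, against 19.5%, 9.34% and 7.996% of the other epithelial cells. Fibroblast markers were at 0.735, 5 and 0.545 UMIs per cell against 0.966, 0.525 and 0.834. Dcn, a gene of the fibroblast pair, was at 2.78, 2.5 and 2.36 UMIs per cell against 0.297, 0.0940 and 0.270. It had a UMI in 11, 3 and 3 of the class I-high cells. The part of fibroblast RNA in the values of the 3 tumours was not tested. The class I-high cells were shallower before thinning, with median totals of 6131, 7972 and 5686 UMIs against 11560, 9280 and 8083.

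Cd74, the invariant chain of MHC class II, had a UMI in 37 of 68, 3 of 10 and 12 of 22 of these cells, against 3.65%, 0.799% and 1.51% of the other epithelial cells and 11.4%, 3.07% and 6.32% of fibroblasts. H2-Aa, a class II chain, had one in 11, 1 and 11 of them. In tumour 3 the leading genes by fold included Guca2a (396 UMIs in 10 of the 22 cells), Car1 (147 UMIs in 7 cells), Car4 (135 UMIs in 7 cells), Aqp8 and Saa1. Guca2a had a UMI in 0.450% of the other epithelial cells of tumour 3 and in 0.108% of its fibroblasts. Several of these genes are known from absorptive cells of the intestine. In tumour 1 the leading genes were Ubd, which is induced by interferon gamma, Tff3 (361 UMIs in 6 cells), class II genes and Cd74. Whether these cells are of 1 kind was not tested.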
